A study of Mus musculus with 11 samples.

Results

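T cells, their cytotoxic products and the checkpoint molecules that restrain them were followed through 10 genes in bulk RNA sequencing of 11 orthotopic pancreatic tumours. The genes were Cd3e, Cd4, Cd8a, Foxp3, Gzmb, Prf1, Ccl5, Pdcd1, Ctla4 and Cd274. They were chosen by name as standard markers from a table of 54232 genes, with earlier results of these data known. All 10 were among the 16536 genes expressed highly enough to be tested. The question was whether they differed between tumours grown in mice lacking protein kinase N2 (PKN2) and tumours grown in wild-type mice, and how that compared with the B lineage genes of the same tumours.

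Tumours came from 6 KO hosts (Pkn2 fl/fl, replicates A to F) and 5 WT hosts (Pkn2 +/+, replicates A to E), all female C57BL/6 mice of 24 to 28 weeks. All hosts, WT included, carried 1 copy of Rosa26CreERT2, a Cre recombinase made in all tissues and switched on by tamoxifen, and all received 5 injections of tamoxifen. Deletion was therefore not limited to fibroblasts but could occur in any host cell, T cells, B cells and normal pancreas included. The tumours were started by injecting 1000 TB32048 cells, 1 mouse pancreatic carcinoma line of the KPC type, which kept an intact Pkn2 gene. Each tumour came from a separate animal.

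T cells recognise antigen through a receptor whose signal is passed on by the CD3 chains, and the coreceptors CD4 and CD8 mark the helper and the killer branch. Killer cells release perforin and granzymes into their targets, regulatory T cells marked by FOXP3 hold responses back, and the receptors PD-1 and CTLA-4 dampen T cells that have been activated. Pancreatic carcinoma is known as a tumour in which killer T cells are often few or kept at the margin by a dense stroma.

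Each KO library held 22791627 to 28017673 counts and each WT library 16294128 to 31121422. Levels are given in CPM, counts brought to one library scale with TMM factors, on which 3 counts corresponded to 0.0964 to 0.184 CPM. The lowest count of any of the 10 genes in any tumour was 16, for Foxp3 in WT replicate B. WT replicate B stood apart with 6.39% of its counts on ribosomal RNA genes, against 0.241 to 1.4% in the other 10 tumours, and WT replicates A, B and C held relatively fewer counts on long genes, with Spearman correlations between gene length and deviation from the mean of -0.505, -0.456 and -0.176 against 0.122 to 0.407 in the other tumours. Pkn2 itself averaged 96.6 ± 9.34 CPM over the 6 KO and 96.7 ± 34.7 CPM over the 5 WT tumours (SD), so that its level did not show the deletion. The carcinoma cells carry the gene, and their part in these values was not tested. In bulk tumour RNA, fewer cells of a type and less RNA per cell cannot be told apart.

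None of the 10 genes differed between KO and WT tumours by more than the spread between animals. No gene passed an adjusted p of 0.05 by the edgeR quasi-likelihood test, none by DESeq2, and none was under an unadjusted p of 0.05 in edgeR, where 0.0181% of all tested genes were called by the adjusted p and 24% were under the unadjusted p. DESeq2 called 8% of the genes it tested, 3.19% higher and 4.81% lower in KO. None of the 10 was under an edgeR adjusted p of 0.1 either, where 5.29% of tested genes were (1.96% higher, 3.33% lower). In no gene did the 6 KO values lie apart from the 5 WT values, as they did in 3.6% of tested genes (1.59% higher, 2.01% lower in KO). The log2 fold changes of KO over WT had a median of 0.30, against -0.03 over all tested genes, and 9 of 10 were above 0, while Ccl5, the exception, was at -0.36 and moved to 0.13 when WT replicates A to C were left out and to 0.14 with a correction for gene length. Without KO replicate F the median of the 10 was -0.06.

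**Figure D1:**
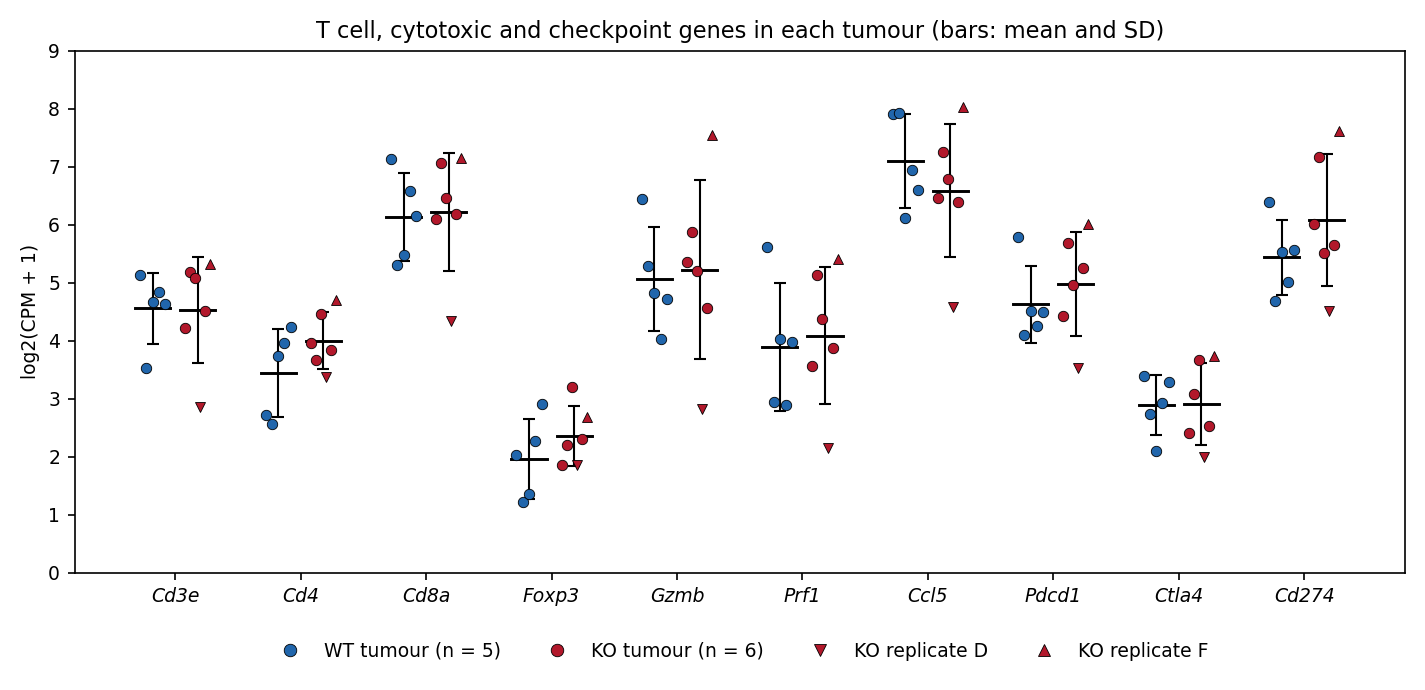
Level of each of the 10 genes in every tumour as log2(CPM + 1), with WT tumours (n = 5) in blue and KO tumours (n = 6) in red, and bars for the mean and SD. The groups overlap in every gene, and KO replicate D (downward triangle) is the lowest KO tumour in 9 of 10 genes while KO replicate F (upward triangle) is the highest in 9 of 10.

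Cd3e encodes the epsilon chain of the CD3 complex and lies on chromosome 9 (44998740 to 45009627, minus strand, GRCm38). In KO tumours it ranged from 6.26 CPM in replicate D through a median of 27.3 to 39.0 CPM in replicate F. In WT replicates A to E it was at 33.9, 10.5, 24.3, 27.8 and 23.8 CPM. The KO range enclosed the WT range, with 2 KO tumours above and 1 below all WT tumours, and their means were 25.5 ± 12.5 CPM for KO and 24.1 ± 8.59 CPM for WT (SD, n = 6 and 5). KO over WT gave a log2 fold change of 0.08 (standard error 0.40, edgeR adjusted p = 0.922), and its 95% interval of -0.79 to 0.94 left room for a change of either sign.

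Cd4, the coreceptor of helper and regulatory T cells and a gene also transcribed by some myeloid cells, lies on chromosome 6 (124864692 to 124888221, minus strand). KO tumours ranged from 9.43 CPM (replicate D) through a median of 13.9 to 25.2 CPM (replicate F). WT tumours A to E were at 5.60, 4.92, 12.3, 14.6 and 17.8 CPM. WT replicates A and B lay below all KO tumours, and KO replicates C and F lay above all WT tumours. Between genotypes the log2 fold change came to 0.52 (standard error 0.36, edgeR adjusted p = 0.394), and it was -0.03 when WT replicates A, B and C were left out.

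Cd8a, the coreceptor chain of killer T cells that some dendritic cells also carry, lies on the same chromosome (71373427 to 71379173, plus strand). It ranged from 19.3 CPM in KO replicate D through a KO median of 79.3 to 141.4 CPM in KO replicate F. The WT tumours A to E held 139.3, 38.5, 43.5, 94.5 and 70.3 CPM. WT replicate A was close to the highest KO tumour, and the lowest value of all belonged to a KO tumour. Fitted over all 11 tumours, this gave a log2 fold change of 0.16 (standard error 0.44, edgeR adjusted p = 0.847).

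Foxp3, the transcription factor that defines regulatory T cells, lies on chromosome X (7573644 to 7595245, plus strand). It shares exon sequence on the same strand with the noncoding gene Flicr, so that counts in that stretch could not be given to either with certainty. KO tumours ranged from 2.63 CPM (replicate A) through a median of 3.78 to 8.21 CPM (replicate C). The WT tumours A to E were at 3.08, 1.34, 1.57, 3.84 and 6.53 CPM. WT replicates B and C were the 2 lowest tumours and KO replicate C the highest. KO over WT gave a log2 fold change of 0.42 (standard error 0.44, edgeR adjusted p = 0.575). It was -0.23 without WT replicates A, B and C, 0.14 without KO replicate C and 0.83 without WT replicate E.

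Gzmb encodes granzyme B, the protease that triggers death of a target cell, and Prf1 encodes perforin, which opens the way for it. Both are made by killer T cells and NK cells and have RUNX transcription factors among their known regulators, so the 250 bases before the start of each gene are shown (RefSeq, GRCm38.p6, 5′ to 3′ on the strand of the gene). Positions count from the RefSeq start, which for both genes differs from the GENCODE start in the coordinates given with the values and for Gzmb lies further upstream. Capitals mark the RUNX core TGTGGT or its reverse complement ACCACA. The Gzmb window is chr14:56262335-56262584 on the minus strand and the Prf1 window is chr10:61297586-61297835 on the plus strand.
Gzmb: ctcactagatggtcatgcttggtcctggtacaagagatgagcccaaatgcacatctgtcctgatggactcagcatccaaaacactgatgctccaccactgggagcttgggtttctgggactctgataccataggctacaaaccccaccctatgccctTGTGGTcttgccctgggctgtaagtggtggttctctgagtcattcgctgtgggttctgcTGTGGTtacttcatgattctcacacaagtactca
Prf1: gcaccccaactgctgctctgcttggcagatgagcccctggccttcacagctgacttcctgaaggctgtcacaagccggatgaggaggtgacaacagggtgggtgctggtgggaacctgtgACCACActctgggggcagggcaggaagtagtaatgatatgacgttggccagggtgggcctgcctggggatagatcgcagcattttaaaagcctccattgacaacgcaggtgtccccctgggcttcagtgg
The core stood 93 and 34 bases before the start in Gzmb and, on the opposite strand, 130 bases before it in Prf1. Of the 8 genes with a window in the table (Cd4 and Ccl5 had none there), Gzmb and Prf1 were the 2 that held the core, which 14% of all 32851 windows hold (4614). This is a match of letters and not a measured binding site.

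Gzmb (chromosome 14, 56258838 to 56262260, minus strand) varied most among KO tumours. It ranged there from 6.10 CPM in replicate D through a median of 37.9 to 185.5 CPM in replicate F, a 30.4-fold range. WT tumours A to E held 86.6, 37.9, 27.5, 15.4 and 25.4 CPM. Both the highest and the lowest tumour were KO. Between genotypes the log2 fold change came to 0.59 (standard error 0.68, edgeR adjusted p = 0.613), a 95% interval of -0.88 to 2.06, and it was -0.25 without KO replicate F, 1.13 without WT replicate A and 1.51 without WT replicates A, B and C.

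Prf1 (chromosome 10, 61297833 to 61304680, plus strand) followed a like order. KO tumours ranged from 3.46 CPM (replicate D) through a median of 16.7 to 41.6 CPM (replicate F), and WT tumours A to E held 47.8, 6.68, 15.3, 6.42 and 14.8 CPM. WT replicate A was the highest of the 11 tumours and KO replicate D the lowest. Fitted over all 11 tumours, this gave a log2 fold change of 0.17 (standard error 0.62, edgeR adjusted p = 0.886). It was 0.92 without WT replicate A and -0.16 without KO replicate F.

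Ccl5, a chemokine released by activated T cells, NK cells and myeloid cells that draws in further T cells, lies on chromosome 11 (83525778 to 83530518, minus strand). In KO tumours it ranged from 23.1 CPM (replicate D) through a median of 98.4 to 260.2 CPM (replicate F). In WT tumours A to E it was at 238.6, 242.6, 68.2, 122.2 and 96.3 CPM. WT replicates A and B were close to the highest KO tumour and the other 3 WT tumours lay among the KO values. KO over WT gave a log2 fold change of -0.36 (standard error 0.49, edgeR adjusted p = 0.673). Ccl5 has the shortest exons of the 10 genes (960 bp in all). With a gene length offset in the fit its log2 fold change was 0.14, and the part of gene length in its values was not tested. Without KO replicate F it was -0.75, and -0.14 without WT replicate B.

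Pdcd1 encodes PD-1, an inhibitory receptor of activated and exhausted T cells, and lies on chromosome 1 (94038305 to 94052553, minus strand). KO tumours ranged from 10.6 CPM (replicate D) through a median of 33.8 to 63.8 CPM (replicate F). WT tumours A to E held 54.0, 16.2, 21.8, 18.1 and 21.5 CPM. WT replicate A stood away from the other 4 WT tumours, which 4 of the 6 KO tumours exceeded. Between genotypes the log2 fold change came to 0.43 (standard error 0.43, edgeR adjusted p = 0.557). It was 0.87 without WT replicate A and 0.18 without KO replicate F.

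Ctla4, the inhibitory receptor that competes with CD28 for its ligands and is abundant on regulatory T cells, also lies on chromosome 1 (60887000 to 60915832, plus strand). Its KO values ran from 2.97 CPM (replicate D) through a median of 6.14 to 12.3 CPM (replicate F), and its WT values were 9.5, 5.67, 3.29, 6.58 and 8.75 CPM. The WT range lay within the KO range. Fitted over all 11 tumours, this gave a log2 fold change of 0.10 (standard error 0.40, edgeR adjusted p = 0.896).

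Cd274 encodes PD-L1, the ligand through which tumour cells, macrophages and other cells engage PD-1, and lies on chromosome 19 (29367455 to 29388095, plus strand). KO tumours ranged from 21.8 CPM (replicate D) through a median of 56.4 to 194.2 CPM (replicate F), with replicate B at 142.5 CPM. WT tumours A to E held 82.8, 24.6, 45.3, 31.2 and 46.4 CPM. KO replicates B and F lay above all WT tumours and KO replicate D below them, so that a higher KO mean (86.0 ± 67.2 against 46.1 ± 22.6 CPM, SD, n = 6 and 5) came with overlapping groups. This was the largest log2 fold change of the 10 genes, 0.90 with a standard error of 0.50 and a 95% interval of -0.19 to 1.99 (edgeR, adjusted p = 0.289). It stayed above 0 in all 19 alternative fits, from 0.27 to 1.22, with a smallest adjusted p of 0.213 (without KO replicate D), and it fell to 0.48 without KO replicate F.

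Compared per kilobase of exon, the 10 genes covered a wide range of levels. Mean levels over the 11 tumours were 140.5 CPM per kb for Ccl5, 34.2 for Gzmb, 22.6 for Cd8a, 18.7 for Cd274 and 16.2 for Pdcd1. They were 7.54 CPM per kb for Prf1, 6.09 for Cd3e, 3.39 for Cd4, 3.02 for Ctla4 and 0.851 for Foxp3. Ccl5 was above Gzmb, Pdcd1 above Prf1 and Ctla4 above Foxp3 in 11 of 11 tumours, and Cd3e above Cd4 in 10 of 11. The order of the other neighbours changed between tumours: Gzmb was above Cd8a in 7, Cd8a above Cd274 in 7, Cd274 above Pdcd1 in 6, Prf1 above Cd3e in 4 and Cd4 above Ctla4 in 8 of 11.

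**Figure D2:**
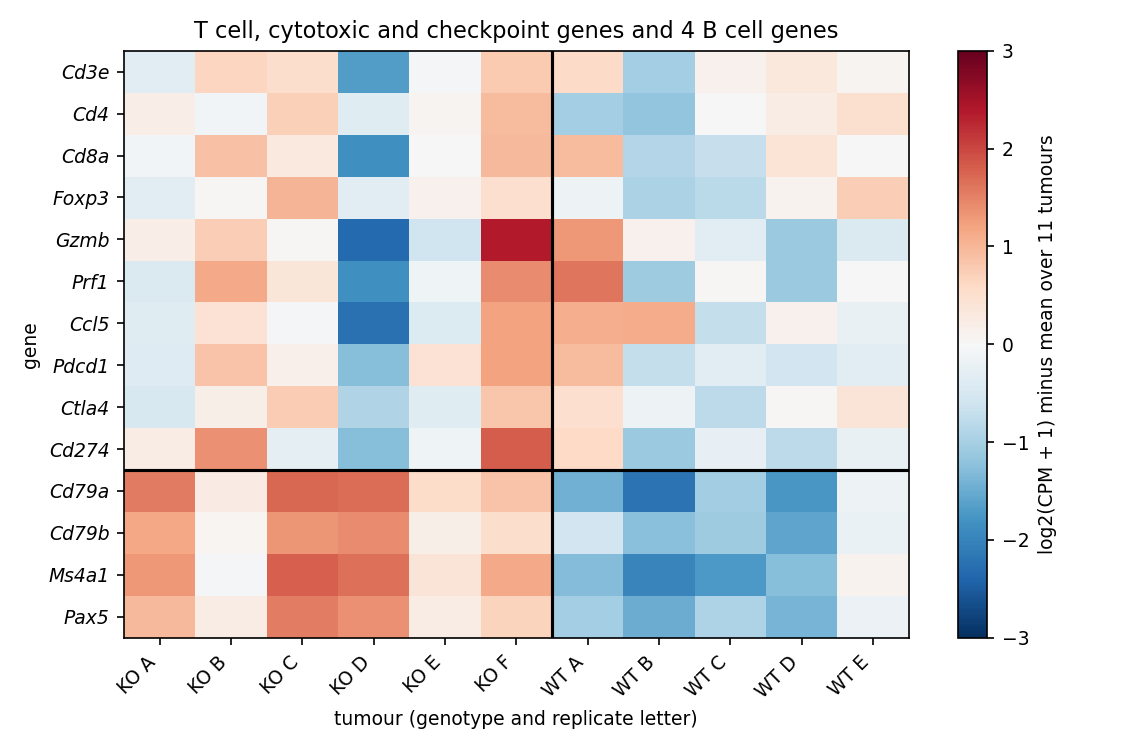
Heat map of the 10 genes and 4 B cell genes (rows) in each tumour (columns, KO left and WT right of the vertical line), coloured by log2(CPM + 1) minus the mean over the 11 tumours. KO replicate D is blue for all 10 genes above the horizontal line and red for the B cell genes, and WT replicates A to D are blue for the B cell genes.

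Most of the genes varied more widely between the 6 KO tumours than between the 5 WT tumours. Cd4 (2.67-fold in KO, 3.61-fold in WT) and Foxp3 (3.13-fold in KO, 4.89-fold in WT) went the other way. The highest KO tumour exceeded the lowest by a median of 6.78-fold over the 10 genes (2.67 for Cd4 to 30.4 for Gzmb), where the median over all tested genes was 1.64-fold and 22.5% of tested genes had a range at least as wide as that of Cd4. In WT tumours the median was 3.59-fold (2.89 to 7.45) against 2.58-fold over all tested genes, and 43.7% of tested genes had a WT range at least as wide as the narrowest of the 10. KO replicate D gave the lowest KO value in 9 of 10 genes and replicate F the highest in 9 of 10, Foxp3 being the exception both times. Their summed level was 105.6 CPM in KO replicate D and 968.5 CPM in KO replicate F, with a KO median of 364.5 CPM, against 263 to 701.2 CPM and a median of 340.6 CPM in WT tumours.

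By Pearson r, 6 of the 9 other genes correlated with the T cell marker Cd3e across tumours at a permutation adjusted p under 0.05. The share of all tested genes that would do so was not computed, so the count is not read as particular to these genes. The points share one library scaling and differ in depth and ribosomal RNA share as given above. Over the 11 tumours, log2(CPM + 1) of Cd8a correlated with that of Cd3e with a Pearson r of 0.926 (permutation p = 9e-05, adjusted p = 0.0009 over the 10 correlations computed) and a Spearman rho of 0.918 (permutation p = 0.00017). For Prf1 r was 0.840 (permutation p = 0.00057, adjusted p = 0.00213) and rho 0.836 (permutation p = 0.00233). For Pdcd1 r was 0.823 (permutation p = 0.00064, adjusted p = 0.00213) and rho 0.836 (permutation p = 0.00201). These 3 genes kept r of 0.783, 0.727 and 0.721 when KO replicate D and WT replicate B, the tumours farthest from the median of Cd3e, were left out.

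Weaker but still past the adjusted threshold were Cd274 (r = 0.744, rho = 0.691, permutation adjusted p = 0.0209 and 0.0455), Ctla4 (r = 0.724, rho = 0.782, permutation adjusted p = 0.0207 and 0.0155) and, for r alone, Gzmb (r = 0.687, rho = 0.618, permutation adjusted p = 0.0356 and 0.0798). Without the same 2 tumours r was 0.583, 0.765 and 0.633. Ccl5 (r = 0.601, rho = 0.591, permutation adjusted p = 0.0824 and 0.0877), Foxp3 (r = 0.538, rho = 0.491, permutation adjusted p = 0.11 and 0.163) and Cd4 (r = 0.467, rho = 0.4, permutation adjusted p = 0.159 and 0.253) did not pass, and without the 2 tumours their r was 0.808, 0.369 and 0.03. Within the 6 KO tumours alone, r with Cd3e was 0.981 for Cd8a and 0.971 for Prf1 (exact permutation adjusted p = 0.0139 for both), 0.958 for Ccl5, 0.931 for Pdcd1, 0.882 for Ctla4 and 0.873 for Gzmb (exact permutation adjusted p = 0.0185, 0.0389, 0.0347 and 0.0417). Those of Cd274 (0.813), Cd4 (0.718) and Foxp3 (0.672) did not pass within KO (exact permutation adjusted p = 0.0754, 0.0895 and 0.0895). Correlations were computed over at least 6 tumours, so that none is given for the 5 WT tumours.

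For the proportion between killer and other T cell genes, too, no difference between genotypes passed the test. The log2 ratio of Cd8a to Foxp3 counts was 4.17 ± 0.88 in KO and 4.62 ± 0.75 in WT tumours (SD, n = 6 and 5), so that KO minus WT was -0.46 (two-sided exact permutation p = 0.338, adjusted p = 0.506 over 3 ratios). The log2 ratio of Gzmb to Cd8a was -1.03 ± 0.77 in KO and -1.09 ± 0.99 in WT tumours, so that KO minus WT was 0.07 (two-sided exact permutation p = 0.909, adjusted p = 0.909 over 3 ratios). KO replicate F was the one tumour with more Gzmb than Cd8a counts, at a log2 ratio of 0.39.

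The genes most like Cd3e over the 11 tumours, by Pearson r of log2(CPM + 1) among 14892 genes and as a description, were Asb2 (0.944), the receptor-proximal kinase gene Zap70 (0.927), Cd8a (0.926), the T cell receptor alpha constant gene Trac (0.926) and the chemokine receptor gene Cxcr6 (0.917). Those most like Gzmb were the PD-L2 gene Pdcd1lg2 (0.970), Phf11b (0.944), Gm19585 (0.942), the MHC class I gene H2-Q7 (0.933) and Abi3 (0.927). Those most like Cd274 were the nitric oxide synthase gene Nos2 (0.980), the RNA sensor gene Dhx58 (0.977), Samhd1 (0.959), the interferon signalling gene Stat2 (0.953) and Ifi213 (0.948). Neither Gzmb nor Cd274 had a T cell receptor gene among its 5 nearest.

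In the wider T cell receptor pathway no gene passed the test either. Of 26 T cell receptor and T cell identity genes, all tested, none was under an unadjusted p of 0.05 in either direction by edgeR and none was called by DESeq2, where 24% of all tested genes were under that unadjusted p. Their median log2 fold change was 0.05. The remaining CD3 chains and receptor genes were at -0.76 for Cd3d (edgeR, adjusted p = 0.350), -0.30 for Cd3g, 0.05 for Cd247 and 0.14 for Trac, and the smallest p belonged to the receptor beta constant gene Trbc1, at -0.90 (standard error 0.45, edgeR adjusted p = 0.237). Without WT replicate A alone, Trbc1 was at -0.33 and Cd3d at -0.19, and without WT replicates A, B and C Cd3d was at 0.28 and Cd3g at 0.08. Summed over the 26 genes the level was 163.5 to 730.8 CPM in KO tumours (median 446) and 370.1 to 809.8 CPM in WT tumours (median 453.8). KO replicate D was the lowest KO tumour in 22 of the 26 genes and KO replicate F the highest in 22.

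Of 16 cytotoxic and NK cell genes, 0 were under an unadjusted p of 0.05 by edgeR, 0 were called by DESeq2, and the median log2 fold change was 0.08. The granzyme genes Gzma and Gzmk were at -0.76 and -0.51, the granule gene Nkg7 at -0.21 and the interferon gamma gene Ifng at 0.19, with edgeR adjusted p from 0.490 to 0.867. The NK cell receptor gene Klrb1c had the smallest p, with a log2 fold change of 0.63 (edgeR, adjusted p = 0.261). Gzma was at 1.51 without WT replicates A, B and C.

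Among 14 regulatory T cell and inhibitory receptor genes, 3 were higher in KO at an unadjusted p under 0.05 (Btla, Entpd1 and Havcr2) against 8.57% of all tested genes, and 0 passed the adjusted threshold in edgeR or DESeq2. Btla, an inhibitory receptor of both B and T cells, averaged 15.1 ± 3.31 CPM over KO and 8.32 ± 4.21 CPM over WT tumours (SD, n = 6 and 5), a log2 fold change of 0.86 (standard error 0.31, edgeR adjusted p = 0.131), and over the alternatives it ran from 0.45 without WT replicates A, B and C (edgeR adjusted p = 0.483) to 1.17 without WT replicate D, where it passed. The count of 3 was 0 without WT replicates A, B and C and with ribosomal RNA as covariate, and 1 with the replicate block, without KO replicate B or F, and without WT replicate B, C or D. The regulatory T cell genes Il2ra, Ikzf2, Tnfrsf4 and Tnfrsf18 were at 0.37, -0.38, -0.32 and -0.09, with edgeR adjusted p from 0.575 to 0.895.

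Among 11 genes for checkpoint and costimulatory ligands, 2 (Icosl and Vsir) were higher at an unadjusted p under 0.05 in edgeR, against 8.57% of all tested genes. None passed the adjusted threshold in edgeR, while DESeq2 called the same 2, against 3.19% of the genes it tested. Icosl, the ligand of the T cell costimulator ICOS and a product of B cells and other antigen-presenting cells, averaged 27.5 ± 5.49 CPM over KO and 14 ± 4.98 CPM over WT tumours (SD, n = 6 and 5) with no overlap between groups, which held for 1.59% of tested genes in that direction. This was a log2 fold change of 0.97 (standard error 0.25, edgeR adjusted p = 0.0905, DESeq2 adjusted p = 0.0110), and it passed in edgeR without WT replicate D (1.09) and without WT replicate E (0.99), and was 0.70 with ribosomal RNA as covariate, the lowest of the alternatives. The ligands Pdcd1lg2, Cd80, Cd86 and Cd276 were at 0.08, 0.13, 0.42 and 0.18, with edgeR adjusted p from 0.388 to 0.941.

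Among 12 T cell chemokine and chemokine receptor genes, 0 passed the adjusted threshold in edgeR, and 1 (Ccl17) was lower at an unadjusted p under 0.05, against 15.5% of all tested genes. Ccl17, a chemokine of dendritic cells that attracts CCR4-bearing T cells, averaged 8.48 ± 4.74 CPM over KO and 24.6 ± 16.1 CPM over WT tumours (SD, n = 6 and 5), a log2 fold change of -1.53 (standard error 0.43, edgeR adjusted p = 0.0942), and it passed in DESeq2 (adjusted p = 0.0140) and in edgeR without WT replicate E (-1.70), while it was -0.80 without WT replicates A, B and C (edgeR adjusted p = 0.380) and -1.11 without WT replicate B. The interferon-induced chemokine genes Cxcl9, Cxcl10 and Cxcl11 were at 1.25, 0.96 and 0.19, and Cxcl16 at -0.08, with edgeR adjusted p from 0.256 to 0.887.

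B lineage genes gave a different count. Like the other lists, this one was written with earlier results of these data known. Its counts are therefore a description and no independent evidence of a change. Of 14 B cell identity genes, 12 were higher in KO at an unadjusted p under 0.05, against 8.57% of all tested genes, and 9 had an edgeR adjusted p under 0.1, against 1.96%. In 5 of the 14 the KO and WT values did not overlap, against 1.59%. None reached an edgeR adjusted p of 0.05, where 3 of all 16536 tested genes were called higher. Without WT replicate D 6 of the 14 did, where 203 of 16830 genes were called higher. Without WT replicate E 11 did, where 608 of 16731 genes were called higher. DESeq2 called 11 of the 14, against 3.19% of the genes it tested. The log2 fold changes of Cd79a and Cd79b, the signalling chains of the B cell receptor, were 2.62 and 1.92 with standard errors of 0.48 and 0.37 (edgeR adjusted p = 0.0663 for both). That of Ms4a1, which encodes CD20, was 2.70 (edgeR adjusted p = 0.0786). The median over the 14 genes was 1.99, against 0.30 over the 10 T cell, cytotoxic and checkpoint genes.

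**Figure D3:**
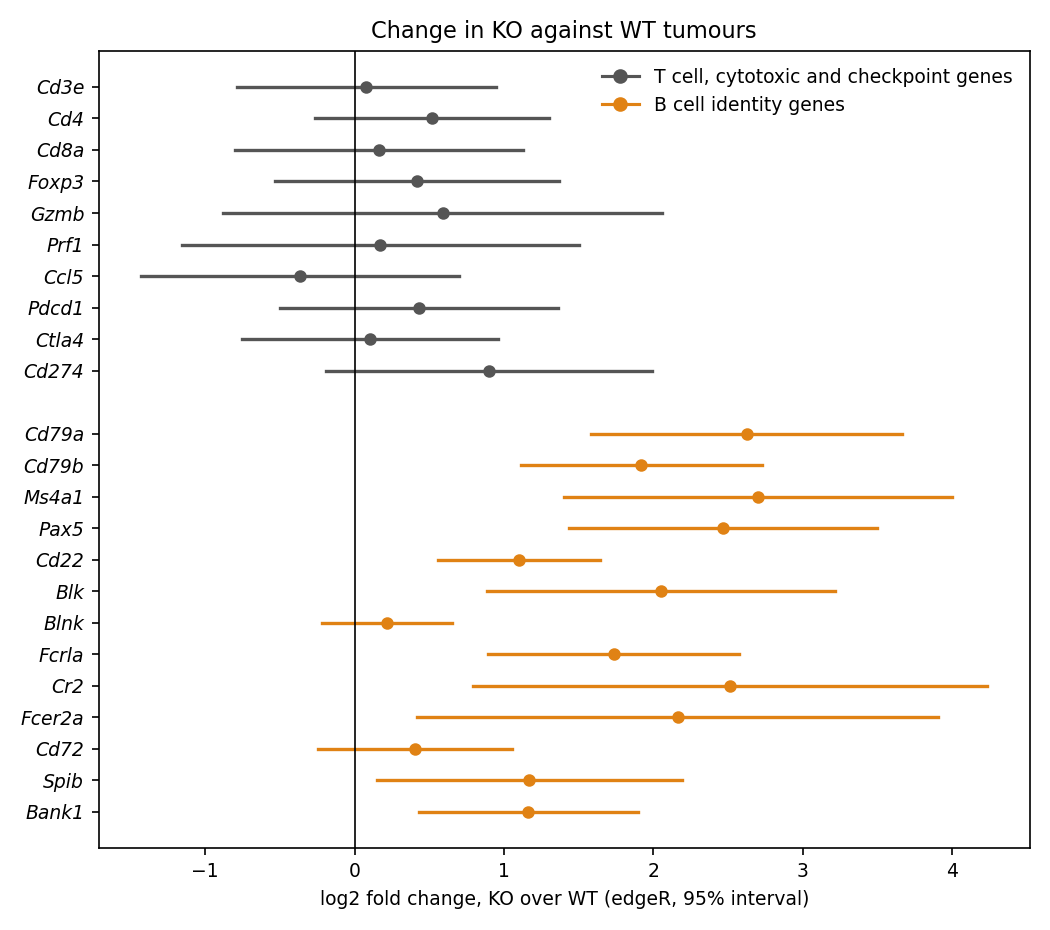
Log2 fold change of KO over WT with its 95% interval from edgeR for the 10 T cell, cytotoxic and checkpoint genes (grey) and 13 of the 14 B cell identity genes (orange), with a line at 0. All 10 grey intervals cross 0, while 11 of the 13 orange intervals lie above it.

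Cd3e was also set against Cd79a, both signalling chains of an antigen receptor, as a ratio within each tumour. Cd79a had the smallest p of the B cell identity genes and the pair was chosen with earlier results known, so that the ratio carries the Cd79a difference, is no independent evidence of it and stands for this pair of genes alone. Cd79a was at 27.5, 10.5, 30.8, 30.0, 13.2 and 16.6 CPM in KO tumours A to F and at 2.60, 1.08, 3.69, 1.92 and 7.80 CPM in WT tumours A to E, so that the groups did not overlap. The ratio of Cd3e to Cd79a counts was between 0.209 (replicate D) and 3.38 (replicate B) in KO tumours and between 3.04 (replicate E) and 14.3 (replicate D) in WT tumours, and 5 of 6 KO tumours lay below all WT tumours. The log2 ratio Cd3e to Cd79a averaged 0.15 ± 1.45 over KO and 3.02 ± 0.90 over WT tumours (SD, n = 6 and 5). The difference of -2.87 passed the test (two-sided exact permutation p = 0.00866, adjusted p = 0.0260 over 3 ratios, smallest possible p = 0.00433). Without WT replicates A, B and C it was -2.57 (two-sided exact permutation p = 0.143, which cannot go below 0.0714 with 6 against 2 tumours).

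**Figure D4:**
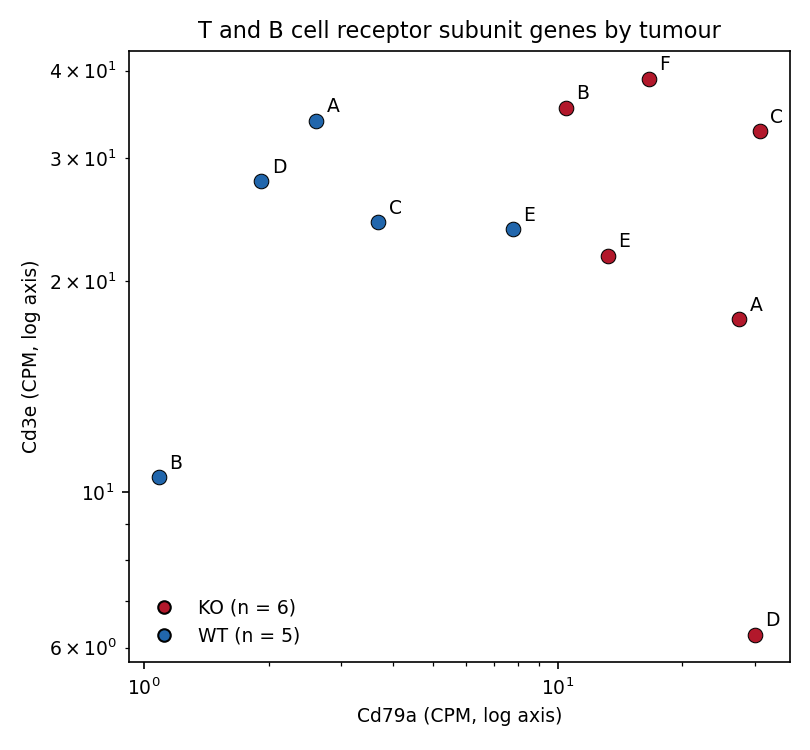
Cd3e against Cd79a in CPM on log axes, 1 point per tumour with its replicate letter, KO in red (n = 6) and WT in blue (n = 5). The KO points lie to the right of all WT points on the Cd79a axis. On the Cd3e axis the KO points reach both below and above the WT points, with KO replicate D lowest.

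No correlation between Cd3e and Cd79a passed the test over the 11 tumours (r = -0.08, rho = -0.03, permutation p = 0.823 and 0.946). KO replicate D joined the lowest summed level of the 10 genes with the highest summed level of immunoglobulin constant and plasma cell genes of all tumours, 5181.7 CPM, and KO replicate F joined the highest summed level of the 10 genes with the lowest KO level of those genes, 349.8 CPM. For B cell identity genes the same tumours were near each other, at 199.5 and 221.7 CPM. B cell identity genes summed to 125.4 to 236.5 CPM in KO and 64 to 107.4 CPM in WT tumours, a separation that the summed T cell identity genes above did not have.

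Among markers of other cells, DESeq2 called 8 immunoglobulin constant and plasma cell genes and 4 neutrophil genes higher in KO. It also called 1 macrophage and dendritic cell gene and 1 lymph node stroma and vessel gene higher, against 3.19% of the genes it tested. It called 0 carcinoma epithelial and 0 fibroblast genes. In edgeR no marker of other cells passed the adjusted threshold. At an unadjusted p under 0.05, where 8.57% of all tested genes were higher and 15.5% lower in KO, 11 of 13 immunoglobulin constant and plasma cell genes, 6 of 10 neutrophil genes and 3 of 14 macrophage and dendritic cell genes were higher in KO tumours, 3 of 10 carcinoma epithelial genes, all of which were expressed, were lower, 0 of 10 fibroblast genes passed in either direction, and 1 of 5 lymph node stroma and vessel genes, the B cell chemokine gene Cxcl13, was higher. The carcinoma epithelial count ranged from 0 with a gene length offset to 6 with ribosomal RNA as covariate, and was 1 without any single one of KO replicates B to F or of WT replicates A and C. Neutrophil genes summed to 475.4 to 2595.7 CPM in KO and 227.2 to 1268.3 CPM in WT tumours, macrophage and dendritic cell genes to 1922.3 to 3392.9 and 1557.5 to 2368.5 CPM, and carcinoma epithelial genes to 2780.5 to 5644.8 and 3130.5 to 9587.2 CPM. Cd4, Ccl5 and Cd274 are also made by some of these cells, and their part in the values of the 10 genes was not tested.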

How the data were processed

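Tumour RNA was sequenced as paired-end reads from strand-specific libraries (NEB Next Ultra II Directional kit). Per the labels and the methods of the study, the authors trimmed reads with Trimmomatic, aligned them with HISAT2 (2.1.0) to mm10 (GRCm38) and counted unique reads of mapping quality over 10 over exons with HTSeq (0.11.2), and bcl2fastq (2.19) is named in the submitters' processing notes. The authors deposited raw counts per Ensembl gene and a table of normalised values, a signal in scaled counts. Each deposited signal value was the raw count divided by 1 factor per sample (0.514 to 1.42): multiplied back, 100% of values were whole within 0.01. The recovered reads were the deposited counts, so that a count test on them would be the test reported here with its 3 calls, and no second test was run. Discarding reads that match several places lowers counts of near-identical genes.

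Symbols came from GENCODE M21 (54165 of 54232 genes matched). Groups and replicate letters came from sample titles. Counts were tested with the edgeR (4.0.16) quasi-likelihood F-test in R (4.3.3), with TMM scaling, filterByExpr, no covariate, all 11 tumours, and Benjamini-Hochberg adjustment over 16536 genes at a threshold of 0.05. DESeq2 (1.42.0; 18612 genes with an adjusted p) was an alternative. The script was tested on simulated counts. Ratios were log2 of counts with 0.5 added, compared by two-sided exact permutation over 462 splits. Correlations used log2(CPM + 1) and 100000 permutations, or exact ones within KO. p-values measure the spread between separate animals. No pair of libraries of a group agreed within sampling noise (lowest chi-square per degree of freedom 35.7).

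The 10 genes and 12 lists of 161 further genes were chosen with earlier results of these data known. The genes named were the 10, Pkn2, the first 4 genes of each T cell and B cell list, the gene with the smallest p in each of these lists, and the 5 nearest genes of Cd3e, Gzmb and Cd274 with at least 1 CPM; lists of other cells are given as counts, and single values of some list genes are not reported here. Vsir, Entpd1, Havcr2 and Cxcl13 were named after their values were seen, to identify small counts. Ccl19 and Ccl21a matched 2 identifiers each and Fdcsp none, Tnfrsf17, Chst4 and Clec4g were below the filter, and none of these was used. Alternatives were other size factors, no filter, at least 10 counts in every sample, the replicate letter as a block, the ribosomal RNA share as a covariate, a gene length offset, DESeq2, leaving out WT replicates A, B and C, and leaving out each tumour. Promoter sequences came from RefSeq (GRCm38.p6).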

Additional observations from a re-analysis of the deposited data

Results flagged for a closer look

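Of 26 groups of values examined for a tumour far from the rest (the 10 genes and the 3 ratios, in each genotype), 1 held such a tumour, where chance gives about 1.3. Pdcd1 in WT replicate A was at 5.781 on the log2(CPM + 1) scale (54.0 CPM), while the next WT tumour was at 4.512 and the lowest at 4.103. Its gap to the next tumour was 0.756 of the range of the WT group, above the critical value of 0.71 for 5 samples. Without this tumour the log2 fold change of Pdcd1 rose from 0.43 to 0.87 and still did not pass (edgeR, adjusted p = 0.253).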

How the results depend on the processing

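The count of T cell, cytotoxic and checkpoint genes past an adjusted p of 0.05 was 0 in all 19 alternatives, and the smallest adjusted p was 0.183 (Cd4 without WT replicate E). At an unadjusted p under 0.05 Cd274 passed without KO replicate D and without WT replicate A, and no gene passed in the other alternatives. The count of B cell identity genes was 3 with no filter, 2 with a gene length offset, 11 with DESeq2, and 0 to 11 when 1 tumour was left out (6 without WT replicate D, 11 without WT replicate E). Over all genes, edgeR called 3 higher and 0 lower, against 593 and 896 by DESeq2, 39 and 6 with no filter, 69 and 28 with a gene length offset, 203 and 651 without WT replicate D, 608 and 1248 without WT replicate E and 30 and 2 without KO replicate F. At an unadjusted p under 0.05 the B cell identity count was 12. It was 8 without WT replicates A, B and C, and 6 with at least 10 counts required in every sample, where fewer genes were tested. In the other alternatives it was 11 or 12. The cause of the other shifts was not tested.

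The tumours were from different animals, and no label pairs them by letter. Deviations from the group means correlated at -0.172 to 0.163 between tumours of 1 letter, and 1 of 5 KO tumours (A) correlated best with its own letter. With 5 letters these values cannot exclude a pairing. With the replicate block, 8 genes were called higher and 1 lower, and log2 fold changes reversed for Cd3e (-0.21), Cd8a (-0.0851), Gzmb (-0.32), Prf1 (-0.12), Ctla4 (-0.23), Cd247 (-0.32), Trac (-0.12), Ifng (-0.0551) and Pdcd1lg2 (-0.45), and the log2 ratio Gzmb to Cd8a to -0.22. The log2 ratio Cd3e to Cd79a was -3.08 with the block (exact permutation p = 0.0625, the smallest that 5 pairs allow) and -2.57 without WT replicates A, B and C (exact permutation p = 0.143, where 6 against 2 tumours cannot go below 0.0714), and -2.39 to -3.22 when 1 tumour was left out.

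Other reversals on the log2 scale were as follows. With the share of ribosomal RNA as covariate they were Cd3e -0.25, Cd8a -0.14, Prf1 -0.21, Ctla4 -0.0135, Cd247 -0.16 and Cxcl11 -0.25. Without WT replicates A, B and C they were Cd3e -0.0135, Cd4 -0.027, Foxp3 -0.23, Ccl5 0.13, Ctla4 -0.0735, Cd3d 0.28, Cd3g 0.0774, Gzma 1.51, Nkg7 0.33, Tnfrsf4 0.18, Tnfrsf18 0.42, Cxcl16 0.44 and the ratio Cd8a to Foxp3 0.15. With a gene length offset they were Ccl5 0.14, Cd247 -0.0526, Nkg7 0.26, Tnfrsf4 0.0525, Tnfrsf18 0.27 and Cxcl16 0.0300. Leaving out 1 tumour gave ranges of -0.11 to 0.28 for Cd3e, -0.0313 to 0.49 for Cd8a, -0.25 to 1.13 for Gzmb, -0.16 to 0.92 for Prf1, -0.11 to 0.26 for Ctla4, 0.14 to 0.83 for Foxp3, 0.18 to 0.87 for Pdcd1, 0.33 to 0.76 for Cd4, -0.47 to 0.054 for Cd3g, -0.29 to 0.27 for Cd247, -0.0246 to 0.32 for Trac, -0.40 to 0.12 for Nkg7, -0.0814 to 0.83 for Ifng, -0.59 to 0.15 for Ikzf2, -0.29 to 0.21 for Tnfrsf18, -0.41 to 0.49 for Pdcd1lg2, -0.00653 to 0.32 for Cd80, -0.0942 to 0.94 for Cxcl11, -0.25 to 0.22 for Cxcl16 and -0.32 to 0.33 for the ratio Gzmb to Cd8a. None of these genes, some of which kept their sign, was past the threshold in either fit.

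With 6 and 5 animals and a standard error of 0.36 to 0.68 for the 10 genes, their 95% intervals all include 0. The lower ends lie between -1.43 (Ccl5) and -0.19 (Cd274) and the upper ends between 0.70 and 2.06. Changes of either sign within these intervals cannot be told from none.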
